A study of Mus musculus with 12 samples.

Results

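The p300, CBP and p160 coactivators form a small set of 8 genes that was chosen by name: Ep300 and Crebbp, the p160 genes Ncoa1, Ncoa2 and Ncoa3, and the CITED genes Cited1, Cited2 and Cited4. Of these 8 genes, 7 had a row among the 20409 genes of the deposited screen tables, and Cited4 had none. In the GENCODE vM21 annotation Cited4 had 1 coding transcript with 1 exon, and the tables were built on exons other than first exons, so the values below cover 7 genes. ORFtag is a gene-trap method: a retroviral cassette drives a resistance gene and a tag from its own promoter, and its splice donor joins the tag to the next exon downstream of the insertion. It was applied in 3 screens, each with 2 sorted and 2 unsorted libraries, which gave 12 libraries in 6 groups. Each library is a list of genomic insertion positions mapped by inverse PCR, and each value below counts distinct positions assigned to a gene from at most 200 kb upstream of the exon.

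All cells were wild-type mouse embryonic stem (mES) cells, diploid descendants of the originally haploid line AN3-12, and each screen used 1 clonal reporter line. In the activator line 7xTetO sites stood before the pMYLPF promoter of a Puro-IRES-GFP reporter. In the repressor line they stood between a pEF1-BFP unit and the pPGK promoter of Puro-IRES-GFP, and both reporters lay at an expression-stable locus on Chr15. The tag in both was TetR, a bacterial DNA-binding domain that holds the tagged protein at TetO sites, and the sorted cells were GFP-positive in the activator screen and GFP-negative in the repressor screen. The PTGR line (posttranscriptional gene regulation) carried a randomly integrated Puro-IRES-GFP-10xBoxB reporter. Here the tag was λN, a phage peptide that binds boxB RNA, so tagged proteins were brought to the reporter mRNA. PTGR sorted cells had passed repeated sorts for low GFP, removal of the boxB sites by Cre recombinase after 4-hydroxytamoxifen, and a last sort for regained GFP. Unsorted cells of each line had been transduced and selected with G418 in the same way, and per the methods were taken after that selection. PTGR-sorted cells thus also differed from unsorted cells in expansion between sorts and in the 4-hydroxytamoxifen treatment, whose effect was not tested.

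p300 and its paralogue CBP are large histone acetyltransferases that act as coactivators: they do not bind DNA themselves but are brought to enhancers and promoters by transcription factors, where they acetylate histones and other proteins. The p160 proteins (SRC family) bind ligand-bound nuclear receptors through a central domain, carry an N-terminal bHLH-PAS domain, and bring in p300 or CBP through activation domains in their C-terminal part. CITED proteins are small nuclear proteins without a DNA-binding domain that bind the CH1 domain of p300 and CBP through a conserved C-terminal region.

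The splice acceptors to which most insertions were assigned are shown first, because the assigned exon sets which part of a protein a fusion would hold. The lists give positions alone, and the cassettes were a mix of 3 reading frames. Splicing and reading frame were thus not observed, and a fusion below means the product predicted from the assigned exon. The lines give the last 20 intron bases in lower case and the first 10 bases of the exon in capitals, 5′ to 3′ on the gene's strand, read from the RefSeq sequence of GRCm38 (mm10) with exon numbers as in the deposited lists.
Ep300 exon 2, chr15:81600888-81600917 (+): tcttttctatttgtttttagATTTTGGTTC
Crebbp exon 2, chr16:4180124-4180153 (-): catttctgcttaatttctagATTTTGGATC
Ncoa1 exon 3, chr12:4354500-4354529 (-): tttcttctcaattatttcagTTGTCCGTGT
Ncoa1 exon 13, chr12:4290985-4291014 (-): acttttgtttctcttcttagTTTACAGCTG
Ncoa1 exon 14, chr12:4278210-4278239 (-): aaccttttctcttcaatcagGATTGCCTGA
Ncoa2 exon 2, chr1:13286016-13286045 (-): gggttttgttcccattgcagATTTTCCTCG
Ncoa3 exon 2, chr2:166034865-166034894 (+): ttcccttcttttatccttagGATCAAAAGA
Cited1 exon 2, chrX:102248678-102248707 (-): ttcttctcttttacttgcagACCAACAGGC
Cited2 exon 2, chr10:17723918-17723947 (+): tctgctcgtttcgctttcagGACTGGAAAT

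Every intron shown ended in AG, and the 20 intron bases held between 12 and 17 pyrimidines in the 10 junctions read (Ncoa1 exon 2 was the tenth). The exon 2 junctions of the paralogues Ep300 and Crebbp were identical at 9 of the 10 exon bases and at 11 of the 20 intron bases. Exon 2 of Ep300 began after 94 coding bases and exon 2 of Crebbp after 85, so an insertion assigned there leaves out 31 of the 2412 codons of p300 and 28 of the 2441 codons of CBP. Exon 2 of Ncoa2, Ncoa3, Cited1 and Cited2 and exon 3 of Ncoa1 began before any coding base of the transcripts that hold them. Exons 13 and 14 of Ncoa1 are shown because many activator-sorted insertions were assigned to them, and they begin after 812 and 872 of the 1447 codons of the longest Ncoa1 protein.

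Sorted libraries held 14705 to 60980 insertions and unsorted libraries 54088 to 233799, which limits the precision of small counts in the sorted cells. The 6 unsorted libraries, 1022126 insertions in all, served as the background. A gene with at least 3 sorted insertions was called a hit where the summed insertions gave an adjusted p below 0.001 (one-sided Fisher's exact test, Benjamini-Hochberg) and a log2 odds ratio no lower than 1. That test takes each insertion as independent and does not use the spread between replicates, so edgeR on the 4 libraries of a screen, 2 of them sorted, is given beside it. An exact permutation test over libraries cannot go below 0.333 with 2 against 2 libraries and 0.0714 with 2 against 6. In the background, 6 of the 7 genes were frequent targets: Ncoa3 had 546 insertions, Ncoa1 508, Ep300 290, Cited2 191, Crebbp 184 and Ncoa2 56, against a median of 15 over all genes, while Cited1 had 7. The median log2 odds ratio of genes with at least 100 background insertions and any sorted insertion was -0.69, -1.21 and -0.20 for activator, repressor and PTGR. Genes without a sorted insertion have no ratio and are left out, so these medians lie higher than they would with them.

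The activator screen held 5 of the 7 measured genes as hits: Ep300, Crebbp, Ncoa1, Cited1 and Cited2. Over all genes 4.64% of the 2842 genes tested were hits there. Ncoa2 and Ncoa3 were tested and were not hits. By edgeR, 5 of the 6 members that passed its filter on low counts had more insertions in sorted cells at an adjusted p below 0.05, where 4.00% of all 2998 genes did, and none had fewer (0.0667% of all genes). Cited1, with 0 and 3 insertions in the unsorted activator libraries, passed that filter only through its sorted libraries. Its edgeR call, and so this count, partly follows from that selection. edgeR called no member upward in the repressor screen, where it called 7.20% of 2779 genes upward. Both sorted libraries lay above all 6 unsorted libraries, per 10000 insertions, for these 5 genes, which held for 11.6% of the genes tested. None of the 7 genes was a hit in the repressor screen, where 8.18% of 2346 tested genes were, and Ep300 was the 1 hit in the PTGR screen, where 0.666% of 9303 genes were.

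**Figure D1:**
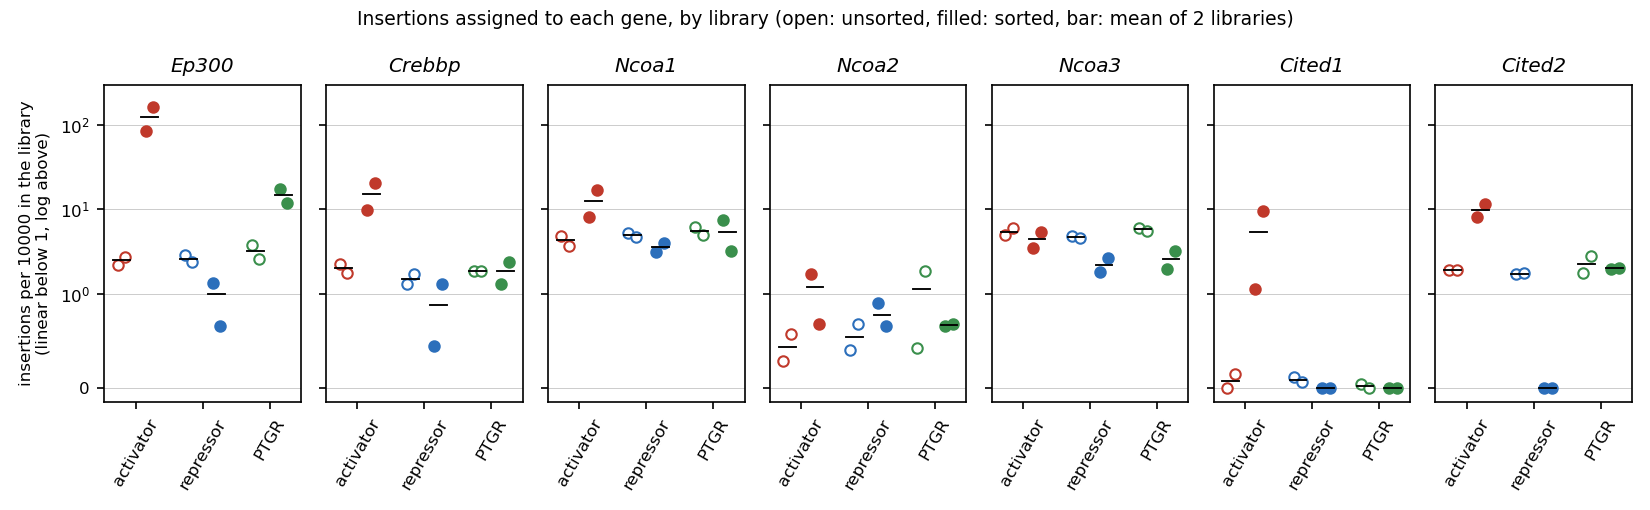
Insertions assigned to each of the 7 genes per 10000 insertions in each of the 12 libraries, on an axis that is linear below 1 and logarithmic above. Open points are unsorted and filled points sorted libraries, and bars are means of 2 libraries: the activator-sorted points of Ep300 stand at 85.6 and 163, and the sorted points of Cited1 and Cited2 in the repressor screen stand at 0.

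Ep300, which encodes p300, had 149 and 240 insertions in the activator-sorted libraries, or 85.6 and 163 per 10000. Unsorted cells had 39 and 57 in the activator line, 50 and 42 in the repressor line, and 88 and 14 in the PTGR line, between 2.22 and 3.76 per 10000. The sorted and unsorted libraries did not overlap. Its log2 odds ratio was 5.43 ± 0.11 (SE from counting), with 4.93 and 5.87 in the sorted libraries taken singly. The unadjusted p of Fisher's exact test was below 1e-300, the smallest value kept. edgeR gave a log2 fold change of 6.04 ± 1.42 (SE, n = 2 against 2, adjusted p = 0.000652), an SE that was larger than for any other of the called members.

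Crebbp, which encodes CBP, had 17 and 30 insertions in the activator-sorted libraries, 9.77 and 20.4 per 10000, against 1.32 to 2.28 per 10000 in the unsorted libraries. Its log2 odds ratio was 3.03 ± 0.24 (SE from counting, adjusted p = 2.61e-23, Fisher's exact test), and edgeR gave 3.22 ± 0.34 (SE, adjusted p = 6.23e-19). Both paralogues were thus enriched, and over summed insertions the enrichment of Ep300 exceeded that of Crebbp by 2.39 ± 0.26 on the log2 scale (95% interval 1.88 to 2.90, two-sided Fisher's exact test, adjusted p = 3.52e-22 over 14 comparisons within paralogue groups). The gap was not seen near the genes. Within 50 kb of the exon, Ep300 had 98 activator-sorted and 42 background insertions and Crebbp 34 and 14, and the log2 ratio between the genes was -0.06 (adjusted p = 1, Fisher's exact test). The log2 odds ratios at that distance were 6.04 ± 0.27 and 6.10 ± 0.46.

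The positions of the insertions showed where the genes differed. In the background, 149 of 184 Crebbp insertions lay 60 to 80 kb upstream of the gene start, 104 of them in a window of 5 kb that overlapped no annotated gene. Of the 47 activator-sorted Crebbp insertions none lay 60 to 80 kb upstream, 13 lay 50 to 60 kb upstream, and 31 lay inside the gene, where the background had 13. Counted inside the gene alone, Crebbp reached a log2 odds ratio of 6.25 ± 0.48 on 10 and 21 activator-sorted insertions, a subset chosen after its values were seen and given without a test. Ep300 kept its distant insertions: 197 of 389 activator-sorted and 193 of 290 background insertions lay 60 to 80 kb upstream, and 31 and 16 lay inside the gene. Upstream of the gene alone, its log2 odds ratio was 5.39 ± 0.12, and inside it 5.95 ± 0.44.

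**Figure D2:**
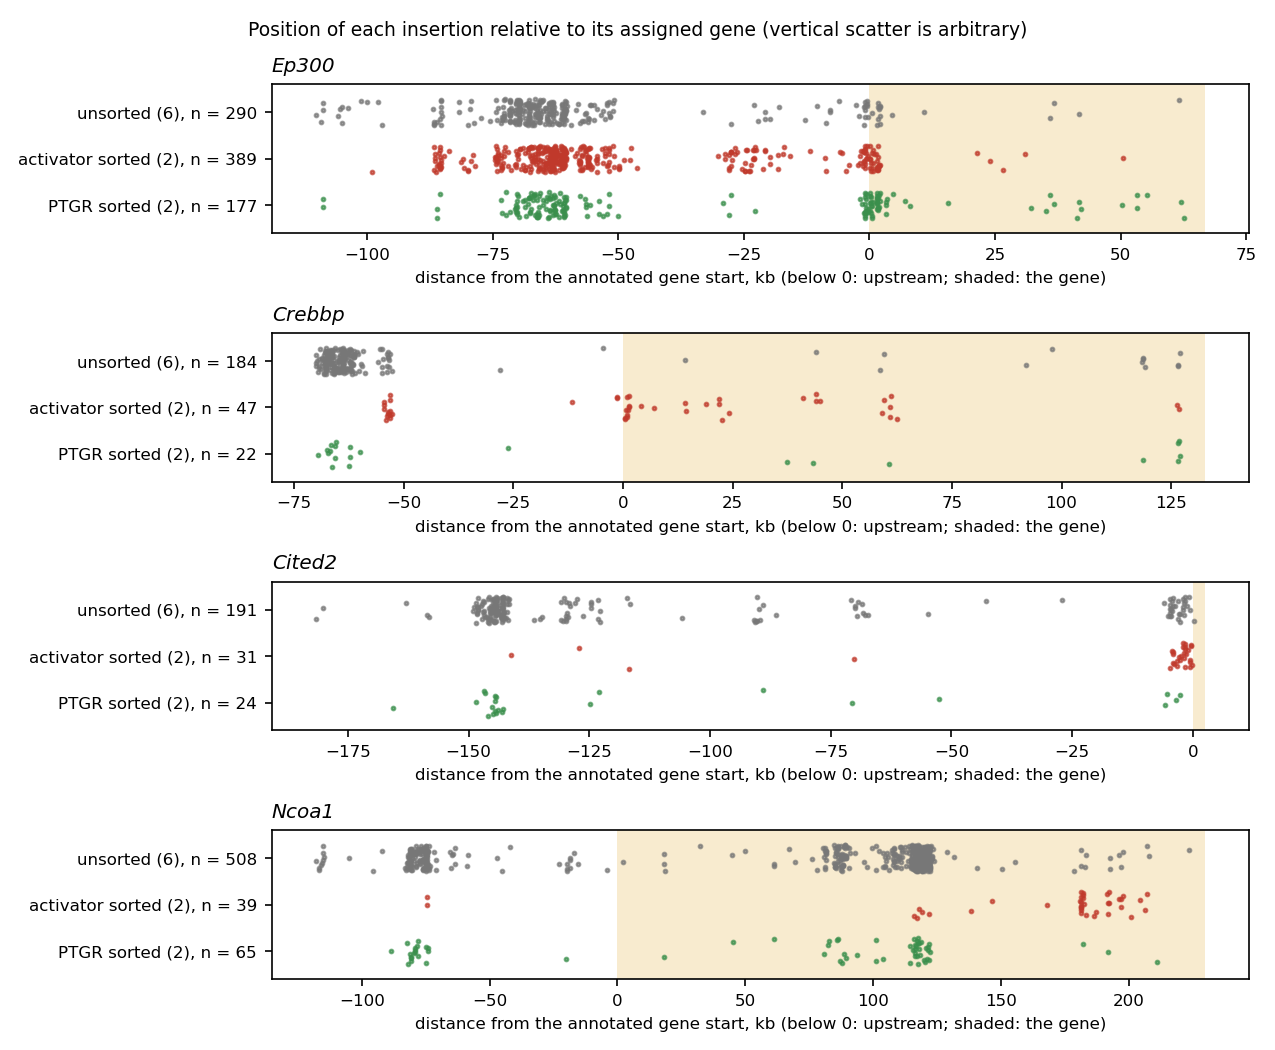
Distance of each insertion from the annotated start of its assigned gene, in kb, for Ep300, Crebbp, Cited2 and Ncoa1, with the gene shaded and one row each for the 6 unsorted, 2 activator-sorted and 2 PTGR-sorted libraries (vertical scatter within a row is arbitrary). The distant background clusters of Crebbp and Cited2 hold none of the 47 and 3 of the 31 activator-sorted insertions, whereas that of Ep300 is present in all rows.

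Cited2 showed the same kind of shift. CITED2 competes with hypoxia-inducible factor for the CH1 domain of p300 and CBP. It had 14 and 17 activator-sorted insertions, 8.05 and 11.6 per 10000, against 1.72 to 2.77 per 10000 in the unsorted libraries, and these did not overlap. The log2 odds ratio was 2.37 ± 0.28 (SE from counting, adjusted p = 7.40e-11, Fisher's exact test) and the edgeR log2 fold change 2.67 ± 0.39 (SE, adjusted p = 3.83e-10). In the background 135 of 191 Cited2 insertions lay 100 to 150 kb upstream and 27 lay under 5 kb upstream. In the activator-sorted cells 3 of 31 lay in the distant stretch and 27 in the near one, and the median distance to the exon was 2813 bp against 143627 bp in the background. Within 50 kb of the exon the log2 odds ratio was 4.57 ± 0.38 (adjusted p = 1.17e-22, Fisher's exact test).

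Cited1, an X-linked CITED gene first described in melanocytes, had 2 and 14 activator-sorted insertions, 1.15 and 9.52 per 10000. The unsorted libraries held 0 to 3, at most 0.145 per 10000, and 7 in all. Its log2 odds ratio of 6.19 ± 0.65 (SE from counting, adjusted p = 4.02e-18, Fisher's exact test) was the highest of the 7 genes on summed insertions within 200 kb, though not within 50 kb (6.01, against 6.10 for Crebbp and 6.04 for Ep300) nor with replicate 1 alone, and edgeR gave 6.19 ± 0.72 (SE, adjusted p = 7.54e-16). The call rested on replicate 2: with replicate 1 alone the log2 odds ratio was 4.07 on 2 insertions, too few for the test. Cited1 passed the edgeR filter on low counts through its sorted libraries alone, so its edgeR value partly follows from that selection. All 16 sorted insertions lay within 16447 bp of the exon. Over summed insertions Cited1 exceeded Cited2 by 3.82 ± 0.71 on the log2 scale (adjusted p = 1.34e-07, two-sided Fisher's exact test), and by 1.44 within 50 kb (adjusted p = 0.294) and 1.96 with replicate 1 alone (adjusted p = 0.243), where the call was lost.

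Among the p160 genes, Ncoa1 (SRC-1) was the 1 hit. It had 14 and 25 activator-sorted insertions, 8.05 and 17.0 per 10000, and 3.66 to 6.12 per 10000 in the unsorted libraries, without overlap. The log2 odds ratio was 1.29 ± 0.24 (SE from counting, adjusted p = 3.29e-05, Fisher's exact test) and the edgeR log2 fold change 1.89 ± 0.36 (SE, adjusted p = 3.97e-06). The call was lost with replicate 1 alone (log2 odds ratio 0.70, adjusted p = 0.332, Fisher's exact test) and in DESeq2 (log2 fold change 1.75, adjusted p = 0.0541), as well as in edgeR without the filter on low counts (1.25, adjusted p = 0.0601). Ncoa2 (SRC-2), with 3 and 1 sorted insertions, had a log2 odds ratio of 1.19 ± 0.75, and Ncoa3 (SRC-3), with 6 and 8, one of -0.29 ± 0.39, both not called (adjusted p = 0.848 and 1, Fisher's exact test). Ncoa1 exceeded Ncoa3 by 1.58 ± 0.46 on the log2 scale (adjusted p = 0.00098, two-sided Fisher's exact test), a call that was lost within 50 kb (0.31, adjusted p = 0.998) and with replicate 1 alone (1.33, adjusted p = 0.163). The interval of the difference between Ncoa1 and Ncoa2 ran from -1.43 to 1.64 and that between Ncoa2 and Ncoa3 from -0.17 to 3.13, so with 4 sorted insertions at Ncoa2 neither was resolved at this depth.

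**Figure D3:**
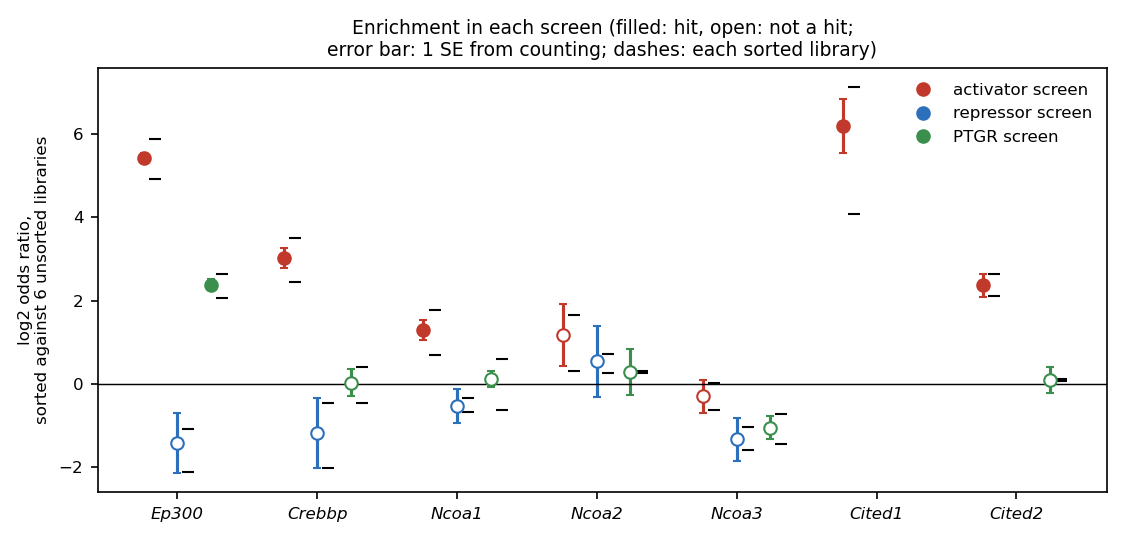
log2 odds ratio of sorted insertions against the 6 unsorted libraries for each gene and screen, with filled points for hits, error bars of 1 SE from counting and short dashes for each sorted library taken singly. Activator values lie above 0 except for Ncoa3 (-0.29), and Ep300 is the 1 gene with a filled point in the PTGR screen. Genes without sorted insertions have no point.

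The exons to which activator-sorted insertions were assigned differed from the background for Ncoa1 and Ncoa3, more so in replicate 2. Exon 3 of Ncoa1 lies before the coding sequence, and a fusion there would leave the protein whole. In the background 335 of 508 Ncoa1 insertions (65.9%, 95% Wilson interval 61.7 to 69.9) were assigned to it. In activator-sorted cells 5 of 39 were (12.8%, 5.60 to 26.7), and the difference passed the test (two-sided Fisher's exact test, adjusted p = 2.58e-09 over all 363 genes tested). Exons 13 and 14 instead held 14 and 11 of the 39 sorted insertions, 4 and 10 in replicates 1 and 2 for exon 13 and 0 and 11 for exon 14, against 4 and 5 of 508 in the background. A fusion that starts at exon 13 keeps the last 43.9% of the coding sequence and one that starts at exon 14 the last 39.7%. The shift was larger in replicate 2, and it was not called with replicate 1 alone (adjusted p = 0.0593, Fisher's exact test). A lower share of the leading background exon in activator-sorted cells was called for 7.16% of the 363 genes and a higher share for 2.75%. In the repressor screen a higher share was called for 5.79% and in the PTGR screen for 0.195% of the genes tested, and for no member.

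For Ncoa3 most activator-sorted insertions stayed at the exon that led the background. In the background 540 of 546 insertions (98.9%, 95% Wilson interval 97.6 to 99.5) were assigned to exon 2. In activator-sorted cells 8 of 14 were (57.1%, 32.6 to 78.6, adjusted p = 1.32e-06, two-sided Fisher's exact test). The 6 others were spread over exons 9, 11, 14, 16 and 18 and all came from replicate 2, where they made up 6 of 8, while replicate 1 had 0 of 6. For Ncoa2, 3 of the 4 sorted insertions fell to exons 13 and 15, with 1 or 2 in each replicate, and 1 to exon 2, which held 30 of 56 in the background. With 4 insertions Ncoa2 was below the minimum of 10 for this test.

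Split at 90% of the coding sequence, a value chosen after the exons were seen, the p160 genes fell into 2 parts. Fusions with under 90% of the coding sequence made up 30 of 39 activator-sorted Ncoa1 insertions against 14 of 508 in the background, 3 of 4 against 10 of 56 for Ncoa2, and 6 of 14 against 3 of 546 for Ncoa3. The log2 odds ratios of these shortened fusions were 6.09 ± 0.47, 3.26 ± 0.95 and 5.99 ± 1.02. For fusions with at least 90% of the coding sequence they were -0.79 ± 0.49, -0.53 ± 1.46 and -1.09 ± 0.51. The values for Ncoa1 and Ncoa3 were above 0 for shortened fusions and below 0 for the others, and that of Ncoa2 with at least 90% rested on 1 insertion. A rise of shortened fusions was not limited to p160 genes or to activator sorting. Crebbp reached log2 odds ratios of 4.99 ± 0.59 with activator and 2.51 ± 0.66 with PTGR sorting. Ncoa1 reached 3.28 ± 0.75 on 5 repressor-sorted insertions. Ep300 reached 4.90 ± 0.82 on 14 PTGR-sorted insertions, all from replicate 1. PTGR-sorted Ncoa1 had 0.87 ± 0.92, and Ncoa3 had no shortened fusion after repressor or PTGR sorting. Repressor-sorted Ep300 and Crebbp had none. These splits are descriptions without a test. Fusions from exons 13 and 14 of Ncoa1 keep the C-terminal part, which in p160 proteins is known to hold the activation domains, and lack the bHLH-PAS domain. This does not hold for every shortened fusion. In the background some started after 177 codons (Ncoa1 exon 8) and others kept only 3 codons (Ncoa2 exon 22).

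Crebbp shifted less. Exon 2 held 35 of its 47 activator-sorted insertions (74.5%, 95% Wilson interval 60.5 to 84.7) and 172 of 184 in the background (93.5%, 89.0 to 96.2), with an adjusted p of 0.00674 (two-sided Fisher's exact test) that rose to 0.181 against the unsorted libraries of the activator line alone. Exons 3 and 4 held 4 and 6 of the others, against 2 and 1 in the background, and fusions from there keep 89.1% and 86.7% of CBP. For Ep300 exon 2 held 384 of 389 sorted insertions (98.7%) and 286 of 290 in the background (98.6%), and no difference was detected (adjusted p = 1, Fisher's exact test). All insertions of Cited1 and Cited2 were assigned to exon 2 in every group.

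**Figure D4:**
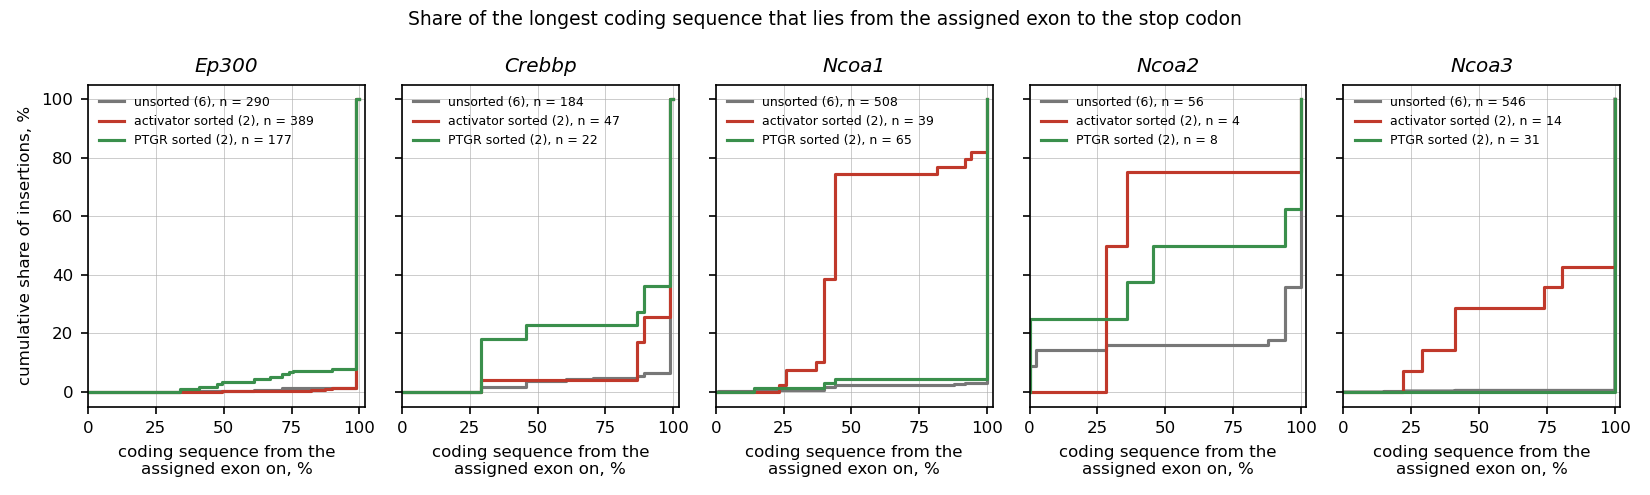
Cumulative share of insertions by the percentage of the longest coding sequence that lies from the assigned exon to the stop codon, for Ep300, Crebbp and the 3 p160 genes, with lines for unsorted (gray), activator-sorted (red) and PTGR-sorted (green) libraries. Under 90% of the coding sequence lie 76.9% of the activator-sorted and 2.76% of the background insertions of Ncoa1.

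The hit test used sense insertions alone, and insertions on the reversed strand were counted beside them. The sense share contains the same sense counts, so for a hit it is not independent of the call, and only the reversed counts are new. An insertion on the opposite strand cannot splice the tag into the gene, and in the background 44.8% to 58.2% of insertions at Ep300, Crebbp, Ncoa1, Ncoa3 and Cited2 were in the sense direction. In activator-sorted cells Ep300 had 389 sense and 4 reversed insertions (99.0% sense, 95% Wilson interval 97.4 to 99.6, against 58.2% in the background, adjusted p = 1.20e-54, two-sided Fisher's exact test over 1256 genes). The sense share was 97.9% for Crebbp (adjusted p = 3.92e-10), 91.2% for Cited2 (adjusted p = 1.20e-06) and 76.5% for Ncoa1 (adjusted p = 0.00227), each by the same exact test, and 7.96% of the genes tested had a higher and 6.05% a lower sense share in sorted cells. Reversed insertions were enriched at 3.14% of genes in the activator screen and at no member. The rise for Ncoa1 was not called with replicate 1 alone (adjusted p = 0.496, Fisher's exact test). For Ncoa3 the share was 58.3%, which did not pass the test (adjusted p = 0.658, Fisher's exact test). Cited1 had 16 sense and 0 reversed insertions in sorted cells and 7 and 0 in the background, so strand gave no comparison there.

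**Figure D5:**
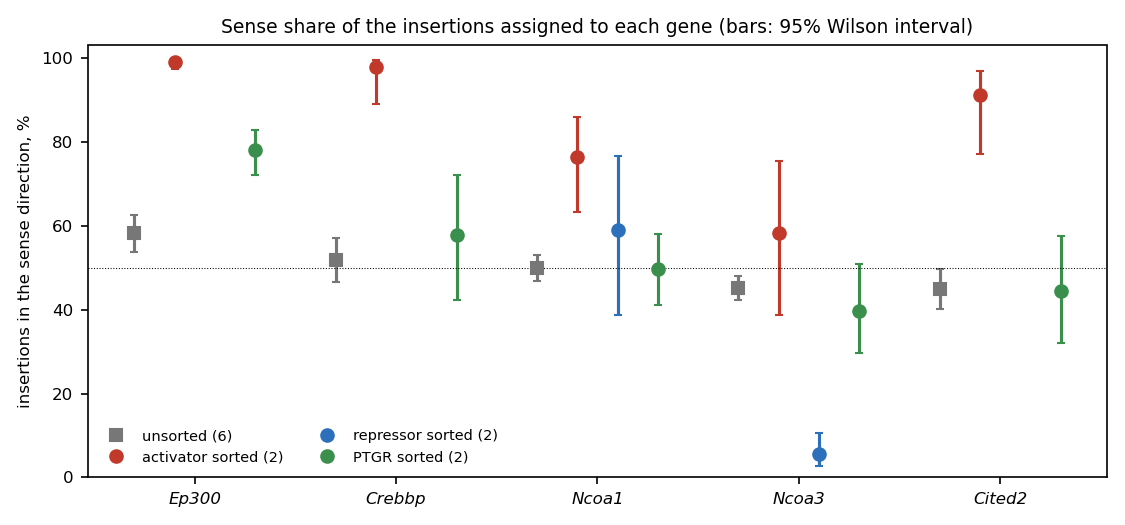
Percentage of insertions in the sense direction at 5 genes, with 95% Wilson intervals, for the 6 unsorted libraries (gray squares) and the sorted libraries of each screen with at least 10 insertions (circles). Activator-sorted values of Ep300, Crebbp and Cited2 stand above 90%, and the repressor-sorted value of Ncoa3 stands at 5.52%.

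In the PTGR screen Ep300 was the 1 member called. It had 107 and 70 insertions in the sorted libraries, 17.5 and 11.95 per 10000, above all 6 unsorted libraries, as for 7.83% of the genes tested there. The log2 odds ratio was 2.39 ± 0.14 (SE from counting, adjusted p = 4.47e-52, Fisher's exact test) and edgeR gave 2.25 ± 0.33 (SE, adjusted p = 1.63e-09, 2.24% of 1696 genes called upward). Of the 177 sorted insertions 49 lay inside the gene, 27.7% against 5.52% of the background. Fusions that start after exon 2 were 14 of 177, all of them in replicate 1, where they were 14 of 107 against 0 of 70 in replicate 2. The sense share was 78.0% against 58.2% in the background (adjusted p = 4.15e-05, Fisher's exact test over 6239 genes, 0.593% with a higher share), below the 99.0% of the activator-sorted cells, and within 50 kb its rise was not called (adjusted p = 0.457). Reversed insertions numbered 36 and 14, and 47 of these 50 were sense insertions of the neighbouring gene St13, a cochaperone, so the sense shares of Ep300 contain the insertions of St13. The enrichment of reversed insertions at Ep300 was 1.05 ± 0.23 on the log2 scale, and it missed the hit threshold (adjusted p = 0.00206, Fisher's exact test).

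None of the other genes was called in PTGR-sorted cells. Crebbp had 8 and 14 insertions, Ncoa1 46 and 19, Ncoa2 4 and 4, and Cited2 12 and 12, with log2 odds ratios of 0.03 to 0.29 and adjusted p values of 0.770 to 0.927 (Fisher's exact test). Within 50 kb the log2 odds ratio of Crebbp was 2.28 ± 0.64 on 8 sorted and 14 background insertions, which missed the threshold (adjusted p = 0.0699, Fisher's exact test). The ratio between Ep300 and Crebbp was 2.35 ± 0.35 on the log2 scale (adjusted p = 5.59e-13, two-sided Fisher's exact test), and 1.54 within 50 kb (adjusted p = 0.152). Exon 2 held 14 of the 22 PTGR-sorted Crebbp insertions (63.6%, adjusted p = 0.0443, Fisher's exact test, 0.418% of 3588 genes called), a call that was lost against the unsorted PTGR libraries alone (adjusted p = 0.698) and with replicate 2 alone (adjusted p = 0.586). Ncoa3 had 12 and 19 insertions, 1.97 and 3.24 per 10000, below all 6 unsorted libraries (4.52 to 6.03), as 5.54% of the genes tested were. edgeR gave a log2 fold change of -1.06 ± 0.36 (SE, adjusted p = 0.122), which did not pass. Ncoa1 exceeded Ncoa3 by 1.17 ± 0.33 (adjusted p = 0.000923, two-sided Fisher's exact test), a call that was lost with replicate 2 alone (0.10, adjusted p = 0.937) and within 50 kb (2.01, adjusted p = 0.0854). Cited1 had no insertion among 119540, which allows up to 0.251 per 10000, above its background of 0.0685.

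In the repressor screen counts were low. Ep300 had 3 and 1 sorted insertions, Crebbp 1 and 2, Ncoa1 7 and 6, Ncoa2 2 and 1, and Ncoa3 4 and 4, and the log2 odds ratios lay between -1.41 and 0.55, none called. Those of Ep300 (-1.41 ± 0.73), Crebbp (-1.17 ± 0.84) and Ncoa3 (-1.32 ± 0.51) were near the median of -1.21 for genes with at least 100 background insertions and any sorted insertion. Both sorted libraries lay below all 6 unsorted libraries for Ep300, Crebbp, Ncoa3 and Cited2. The same held for 30.7% of the genes tested, a share that leaves out genes with fewer than 3 sorted insertions, Cited2 among them. For Crebbp the gap was narrow, with 1.315 per 10000 in repressor sorted replicate 2 and 1.320 in repressor unsorted replicate 1. For Ncoa1, exon 3 held 4 of 13 sorted insertions (30.8%, adjusted p = 0.083, two-sided Fisher's exact test, 10.7% of 328 genes called), which did not pass, and exons 13 and 14 held 2 and 3. Cited2 had no insertion among 37470 in the repressor-sorted libraries. A count of 0 allows up to 0.801 per 10000, and the background of 1.87 per 10000 made the sorted cells at least 2.33-fold lower. The median log2 odds ratio of -1.21 given above is a drop of similar size, so this bound does not set Cited2 apart from other genes with many background insertions. edgeR did not call Cited2 (adjusted p = 0.114), and its unadjusted p of 0.0127 was the one below 0.05 among the members that edgeR tested there. Cited1 also had none, but its background of 0.0685 per 10000 lay below that limit, so no decrease was detectable at this depth.

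Ncoa3 stood apart on the reversed strand in the repressor screen. There 91 and 46 insertions were assigned to it in the reversed direction, against 663 in the background, a log2 odds ratio of 2.76 ± 0.14 (adjusted p = 2.87e-59, Fisher's exact test, 5.61% of 2229 genes called), and the sense share was 5.52% against 45.2% in the background (adjusted p = 3.87e-23, two-sided Fisher's exact test, 11.8% of 971 genes with a lower share). All 137 of these insertions were sense insertions of Zmynd8, the neighbour on the other strand, which encodes a chromatin reader that binds corepressor complexes. Zmynd8 was itself a hit of the repressor screen with 213 and 105 sorted insertions (log2 odds ratio 3.18 ± 0.09, adjusted p = 1.22e-165, Fisher's exact test).

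The differences between screens were tested in one edgeR model over all 12 libraries. The sorted-against-unsorted change of Ep300 was 6.61 ± 0.68 higher on the log2 scale in the activator than in the repressor screen (adjusted p = 1.66e-11, edgeR), 3.90 ± 0.49 higher in the activator than in the PTGR screen (adjusted p = 4.70e-09, edgeR), and 2.71 ± 0.78 higher in the PTGR than in the repressor screen (adjusted p = 0.0174, edgeR). The last one was lost without repressor sorted replicate 2 (adjusted p = 0.121, edgeR). Changes of this sign were called for 3.15%, 3.35% and 1.01% of 2569 genes, and of the opposite sign, which no member had, for 5.10%, 0.545% and 5.53%. For Crebbp the activator change exceeded the repressor change by 3.39 ± 0.81 and the PTGR change by 3.23 ± 0.55 (adjusted p = 0.00157 and 9.62e-06, edgeR). For Cited2 it exceeded the PTGR change by 2.64 ± 0.55 (adjusted p = 0.00039, edgeR), while its difference from the repressor screen (adjusted p = 6.08e-05, edgeR) has no usable size because both repressor-sorted libraries were at 0. Ncoa1 differed between the activator and PTGR screens by 1.94 ± 0.48 (adjusted p = 0.00481, edgeR), a call that was lost on leaving out activator sorted replicate 2, activator unsorted replicate 2, PTGR sorted replicate 2 or PTGR unsorted replicate 1 (adjusted p = 0.540, 0.0882, 0.176 and 0.125, edgeR). Between the activator and repressor screens Ncoa1 did not pass (1.67 ± 0.58, adjusted p = 0.0676, edgeR), but it did with the replicate number as a block (1.67, adjusted p = 0.0264, edgeR). Leaving out activator sorted replicate 2 also ended the calls of Crebbp against the repressor screen (adjusted p = 0.0695, edgeR) and of Cited2 against the PTGR screen (adjusted p = 0.0661, edgeR).

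Genes that work with these coactivators were counted from 2 lists. Of 13 acetyltransferases and p160 partners, 4, 4 and 10 had enough sorted insertions for a test in the activator, repressor and PTGR screens. Over all genes tested 4.64%, 8.18% and 0.666% were hits there, and both lists were chosen with earlier results known. Kat7 (HBO1, a histone H3 and H4 acetyltransferase) was the 1 activator hit with 8 and 9 sorted insertions (log2 odds ratio 2.20 ± 0.37, adjusted p = 2.22e-05, Fisher's exact test). None was a repressor hit or called by edgeR there, and Ncoa5, a coregulator of nuclear receptors, was the 1 PTGR hit with 27 and 17 (3.80 ± 0.35, adjusted p = 4.46e-23, Fisher's exact test). The median log2 odds ratios of the genes tested were -0.50, -1.08 and -0.01, against -0.14, -0.39 and 0.14 over all tested genes.

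Of 18 transcription factors and cofactors known to bind p300 or CBP, 8, 6 and 11 were tested. Hits made up 4.64%, 8.18% and 0.666% of all genes tested. The activator hits were Rela, the p65 subunit of NF-κB, with 22 and 72 sorted insertions (5.67 ± 0.24, adjusted p = 6.29e-99, Fisher's exact test), Trp53, which encodes p53, with 17 and 22 (2.26 ± 0.25, adjusted p = 1.06e-12), and Ss18l1 (CREST) with 4 and 5. Ss18l1 had no insertion in the background, so its share in sorted cells was at least 95.5-fold higher against the limit of 3 counts. Atf1, which encodes a CREB-family factor, was a hit of the repressor screen, not of the activator screen, with 120 and 73 insertions (4.93 ± 0.15, adjusted p = 6.19e-173, Fisher's exact test). No factor of this list was a PTGR hit, and the medians of the genes tested were 1.48 with Ss18l1 at that limit (1.11 without it), 0.95 and -0.12. By edgeR 2 of 7, 2 of 6 and 0 of 3 factors that passed its filter were called upward, where 4.00%, 7.20% and 2.24% of all genes were. In the repressor screen these were Atf1 and Crem, and Crem (adjusted p = 0.0400, edgeR) was not a hit there (adjusted p = 0.288, Fisher's exact test).

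The genes whose insertion levels over the 12 libraries were most like those of Ep300 were Mllt3 (AF9, a YEATS-domain reader), Setd1b (a histone H3 lysine 4 methyltransferase) and 5730455P16Rik, with Pearson correlations of 0.94 each on log2 insertions per 10000 after adding 0.5, among 5886 genes with at least 50 insertions. All points share the same 12 libraries, and the correlations are a description. Crebbp ranked 36 by this measure (0.86), Cited2 64 (0.82), Ncoa1 73 (0.80), Ncoa2 1040 (0.35) and Ncoa3 2649 (0.06). Mllt3 had 36 and 43 insertions in activator-sorted cells and 10 or fewer in each unsorted library, and Setd1b had 193 and 284.

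The insertions behind these counts were mostly distinct between libraries. Of 385 distinct activator-sorted Ep300 positions, 4 were found in both sorted replicates and 39 also in an unsorted library. Merging positions within 10 bp left 310, and all 5 activator hits were also hits after such merging.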

How the data were processed

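The deposited insertion lists and screen tables of 12 libraries were used. Per the labels and methods, the authors trimmed inverse PCR reads with Trim Galore 0.6.0, aligned them with Bowtie2 to mm10, used SAMtools 1.9, and gave every insertion the closest exon downstream of it, first exons excluded. The lists hold positions without read counts, so the depth in reads is unknown. Positions, distances and exon numbers (units recorded as other) are as deposited. The counts deposited by the authors in the screen tables are summed insertions per gene. Their fold changes and p-values were not used.

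Distinct positions within 200 kb were counted per gene and library, repeats once. These sums were 119540 in PTGR-sorted cells against 128486 in the authors' table (Ep300 11 fewer). Sorted sums were set against 6 unsorted libraries by one-sided Fisher's exact test in scipy 1.17.1, with Benjamini-Hochberg adjustment over genes with at least 3 sorted insertions. edgeR 4.0.16 (quasi-likelihood, R 4.3.3) fitted libraries and differences between screens, with DESeq2 1.42.0 as an alternative. Exon and strand shares were adjusted over all genes with at least 10 sorted insertions, although the planned adjustment was over the members. Tested on simulated data, the Fisher test recovered 100%, 99% and 100% of 16-fold changes in the activator, repressor and PTGR screens and 39.8%, 39.4% and 63.0% of 4-fold changes. These shares are over changed genes that reached the minimum of sorted insertions. The simulation used the 2 unsorted libraries of a screen as background, not all 6. Its changed genes were drawn from those with many expected insertions, so it does not cover genes such as Cited1. Intervals cover counting error only. Per the methods, the 2 replicates of a screen were biological replicates, and unsorted cells were set aside from the transduced pool that was then sorted, so replicate numbers pair the libraries of a screen. Of the activator-sorted Ep300 positions, 28 were shared with the unsorted library of the same number and 1 with the other, and in the PTGR screen 18 and 0. Deviations of same-numbered libraries correlated at 0.06, -0.0018 and 0.24 over 3475 genes. The replicate block was fitted as an alternative. The 8 genes were named whatever their values, with the pathway genes that were hits and the 3 genes most like Ep300. Zmynd8 and St13 were named after their values were seen. Members and lists were chosen with earlier results of these data known. Exon annotation was GENCODE vM21, whereas the authors used vM25.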

Additional observations from a re-analysis of the deposited data

Results flagged for a closer look

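Among the 6 unsorted libraries, PTGR unsorted replicate 2 stood apart from the others for Ncoa2, with 1.85 insertions per 10000, and for Cited2, with 2.77 per 10000. Of the 7 genes checked in this way, chance alone would mark about 1 in 20. This library had the fewest insertions of the unsorted libraries, 10 of them at Ncoa2 and 15 at Cited2.

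The change on sorting differed between screens, by the test of the difference in edgeR, for 4 genes. For Ep300 the difference on the log2 scale was 6.61 between the activator and repressor screens, 3.90 between the activator and PTGR screens and 2.71 between the PTGR and repressor screens. For Crebbp it was 3.39 between the activator and repressor screens and 3.23 between the activator and PTGR screens. For Ncoa1 it was 1.94 between the activator and PTGR screens. For Cited2 it was 2.64 between the activator and PTGR screens and 9.85 between the activator and repressor screens, and the last value depends on how edgeR treats the 0 insertions in both repressor-sorted libraries.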

How the results depend on the processing

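The number of hits among the members stayed at 0 and 1 in the repressor and PTGR screens. In the activator screen it was 5 in most settings. It was 4 there in DESeq2, in edgeR without the filter, with at least 90% of the coding sequence and inside the annotated gene. Leaving out 1 library gave 3 to 5 in the activator screen, with 3 without activator sorted replicate 2. With the replicate block, which pairs sorted and unsorted cells of one number, the difference of Ncoa1 between the activator and repressor screens was called (1.67, edgeR adjusted p = 0.0264). The block changed no other edgeR call among the members. Uncalled values with the block were 0.0551 for Ncoa3 in the activator screen and 0.27 for Ncoa1 in the repressor screen. Both had the sign of edgeR without the block, opposite to that of the log2 odds ratio.

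The log2 values below also changed sign. Of these, Ncoa1 in the activator screen and Ep300 over Crebbp there were called with all insertions, and the rest were not called. Within 50 kb they were 1.22 for Ncoa3 in the activator screen, 0.10 for Ep300, 0.68 for Crebbp and -0.32 for Ncoa2 in the repressor screen, and -0.0577 for Ep300 over Crebbp and -0.0640 for Ncoa1 over Ncoa2 in the activator screen. Inside the annotated gene, a choice made after seeing the data, they were 3.05 for Ncoa3 in the activator screen, 0.77 for Ep300 and 1.07 for Crebbp in the repressor screen. With at least 90% of the coding sequence, also chosen after seeing the data, they were -0.79 for Ncoa1 and -0.53 for Ncoa2 in the activator screen, and -0.52 for Crebbp and -0.43 for Ncoa2 in the PTGR screen. Against the unsorted libraries of the PTGR screen alone they were -0.0275 for Crebbp, -0.12 for Ncoa1 and -0.0539 for Ncoa2. edgeR gave 0.0270 for Ncoa3 in the activator and 0.27 for Ncoa1 in the repressor screen, and with DESeq2 size factors 0.14 and 0.30. edgeR without the filter, added after seeing the data, gave -0.13 for Crebbp, -0.16 for Ncoa1, -0.41 for Ncoa2 and -0.15 for Cited2 in the PTGR screen, and DESeq2 gave -0.00048 for Ncoa1, -0.55 for Ncoa2 and -0.0550 for Cited2. With only the unsorted libraries of one screen as background, the leading exon share differed by -1.29 percentage points for Ep300 in the activator and 1.9 for Ncoa1 in the PTGR screen. The cause of these changes was not tested.

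Leaving out 1 library turned the sign in these ranges: -0.63 to 0.03 for Ncoa3 in the activator screen, -0.46 to 0.41 for Crebbp and -0.62 to 0.60 for Ncoa1 in the PTGR screen. Differences between the PTGR and repressor screens ran from -0.26 to 0.97 for Crebbp and -0.97 to 0.37 for Ncoa1, and between the activator and repressor screens from -0.10 to 1.08 for Ncoa2 and -0.14 to 0.95 for Ncoa3. The ratio of Ncoa1 to Ncoa2 ran from -0.96 to 1.46 in the activator and -0.93 to 0.34 in the PTGR screen, and that of Ep300 to Crebbp from -1.66 to 0.93 in the repressor screen. PTGR leading exon differences ran from -11.7 to 1.38 percentage points for Ep300 and -11.6 to 18.3 for Ncoa1, and PTGR sense differences from -16.6 to 12.3 for Ncoa1, -12.7 to 1.18 for Ncoa3 and -1.98 to 1.32 for Cited2. Counts of 4 or fewer sorted insertions limit Ncoa2 in the activator screen and most members in the repressor screen.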
